A study of Mus musculus with 18 samples.

Results

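The CXC and CX3C chemokines described here are 10 genes, Cxcl1, Cxcl2, Cxcl5, Cxcl9, Cxcl10, Cxcl12, Cxcl14, Cxcl15, Cxcl16 and Cx3cl1, taken by their current mouse symbol from the 36528 genes counted in primary mouse renal proximal tubulo-interstitial epithelial cells (RPTEC). Of these, 8 exceeded 10 reads in 4 samples or more and were tested, as were 15521 genes in all. Cxcl9 and Cxcl15 did not pass that filter. Cx3cl1, Cxcl16 and Cxcl10 rose more than 2-fold with the cytokine TWEAK at both 6 h and 24 h, and all 3 were lower when the kinase NIK was inhibited. For Cxcl10 at 6 h the call with the inhibitor was lost in some alternative fits. Cxcl14 fell with TWEAK at both times, and Cxcl5 fell at 24 h.

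Chemokines are small secreted proteins that guide leukocytes through G protein-coupled receptors, and CXC and CX3C describe the spacing of their first cysteines. Cxcl1, Cxcl2 and Cxcl5 act on CXCR2 and attract neutrophils, Cxcl9 and Cxcl10 act on CXCR3 and attract activated T cells, and Cxcl12 acts on CXCR4 and the scavenging receptor ACKR3. Cxcl16 and Cx3cl1 are made as membrane-anchored proteins on a mucin-like stalk, can be shed by proteases, and bind CXCR6 and CX3CR1, respectively. TWEAK, a member of the TNF family, signals through the receptor Fn14 to both arms of NF-κB, and NIK, the product of Map3k14, is the kinase on which the non-canonical arm depends.

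RPTEC of C57BL/6 mice, bought as primary cells, received vehicle (DMSO), TWEAK at 100 ng/mL, or TWEAK at 100 ng/mL with the NIK inhibitor NIK SMI1 at 3 µM. Cells were harvested at 6 h or 24 h, which gave 6 groups of 3 samples. No group received NIK SMI1 alone, so an effect of the compound without TWEAK was not measured. Nothing in the labels says that the 3 samples of a group came from separate animals or preparations, and the p-values measure only the spread between these samples. Age and sex of the donor mice were not given in the sources used here.

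Between 18040966 and 51956444 reads were counted per sample, so that 3 reads equalled 0.0577 to 0.166 CPM, the count scaled to the total of the sample. Pairs of samples of 1 group differed by more than counting noise, with a chi-square per gene of 2.19 to 9.95, highest for the pairs that held vehicle 6 h replicate 1. All 9 markers of tubular epithelium had more than 10 reads in every sample, with summed levels at 6 h of 10340 to 10810 CPM in vehicle, 9588 to 9945 CPM with TWEAK and 10150 to 10760 CPM with the inhibitor added. At 24 h the sums were 9267 to 9424, 8181 to 8291 and 9025 to 9036 CPM. Epcam, of the same list, went the other way, with means of 721, 1292 and 843 CPM at 6 h and 649, 1214 and 884 CPM at 24 h. The part of these differences in the results was not tested. Of 9 proximal tubule markers Slc34a1, Slc22a6 and Hnf4a had at most 3 reads in any sample, and Lrp2, Aqp1 and Anpep at most 18. Slc5a2 and Cubn were above 10 reads in every sample, with group means of 6.51 to 8.11 and 2.14 to 4.35 CPM, and Ggt1 had 10 to 95 reads. The summed level of this list was 10.8 to 14.8 CPM over all groups. Of 7 leukocyte markers only Cd68 was above 10 reads in every sample, Cd3e had no read, Lyz2 had at most 3 reads, and the summed level of the list was 11.6 to 14.8 CPM over all groups. The 5 endothelial markers summed to 0.244 to 0.956 CPM, and the 7 fibroblast markers to 9.67 to 14 CPM, most of it Col1a1. Reads of the insulin genes Ins1 and Ins2 were present at 7.31 to 16.5 CPM in 13 samples, at 2.34 CPM in TWEAK 24 h replicate 3, and absent from TWEAK 24 h replicate 2 and from the 3 samples with TWEAK and NIK SMI1 at 24 h. Results at 24 h that changed without TWEAK 24 h replicates 1 and 3 are given both ways beside the gene concerned. In bulk RNA, a change in the share of cells that make a transcript and a change in transcript per cell cannot be told apart.

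Of the 10 genes, 6 lie on chromosome 5, in the RefSeq order Cxcl5, Cxcl15, Cxcl1, Cxcl2, Cxcl9 and Cxcl10. Cxcl1 and Cxcl2 are direct neighbours there, Cxcl15 lies next to Cxcl1, and 16 protein-coding genes stand between Cxcl2 and Cxcl9. The promoters shown here, from 250 bases before to 50 bases after the RefSeq start on GRCm38.p6, are those of the CXCR2 ligands Cxcl1 and Cxcl2, of Cxcl10, and of Cx3cl1, because these genes rose with TWEAK and their promoters show the matches described next: one shared by Cxcl1 and Cxcl2, several in Cxcl10, and no NF-κB match in Cx3cl1. Capitals mark matches to the NF-κB consensus and, in Cxcl10, to the interferon element, searched as GAAA, any 2 bases and GAAA. The regions are chr5:90890995-90891294 on the plus strand for Cxcl1, chr5:90903649-90903948 on the plus strand for Cxcl2, chr5:92348840-92349139 on the minus strand for Cxcl10 and chr8:94771930-94772229 on the plus strand for Cx3cl1.
Cxcl1: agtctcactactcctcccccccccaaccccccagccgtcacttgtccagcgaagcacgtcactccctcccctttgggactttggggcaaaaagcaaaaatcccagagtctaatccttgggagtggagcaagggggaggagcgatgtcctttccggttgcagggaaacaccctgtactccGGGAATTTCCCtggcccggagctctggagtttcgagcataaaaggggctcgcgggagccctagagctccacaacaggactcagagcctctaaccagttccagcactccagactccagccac
Cxcl2: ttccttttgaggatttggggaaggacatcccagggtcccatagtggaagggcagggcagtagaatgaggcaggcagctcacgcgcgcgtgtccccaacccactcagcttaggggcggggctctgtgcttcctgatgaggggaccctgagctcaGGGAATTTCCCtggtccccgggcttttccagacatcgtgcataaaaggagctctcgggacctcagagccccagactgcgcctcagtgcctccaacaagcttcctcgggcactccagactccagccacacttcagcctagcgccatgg
Cxcl10: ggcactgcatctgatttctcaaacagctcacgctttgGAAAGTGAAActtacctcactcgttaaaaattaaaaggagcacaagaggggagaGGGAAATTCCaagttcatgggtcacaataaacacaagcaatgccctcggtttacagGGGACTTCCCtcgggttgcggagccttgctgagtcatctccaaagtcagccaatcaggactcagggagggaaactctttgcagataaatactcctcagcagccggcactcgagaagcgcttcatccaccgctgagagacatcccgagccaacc
Cx3cl1: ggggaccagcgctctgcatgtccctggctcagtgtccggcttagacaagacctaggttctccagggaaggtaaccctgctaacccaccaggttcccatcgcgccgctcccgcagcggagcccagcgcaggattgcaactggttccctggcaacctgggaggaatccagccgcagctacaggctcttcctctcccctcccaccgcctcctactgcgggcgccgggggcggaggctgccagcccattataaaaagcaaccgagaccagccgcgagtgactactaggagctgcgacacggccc

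Cxcl1 and Cxcl2 hold the same run of capitals, which matches the NF-κB consensus on both strands, 71 and 97 bases before the start. Cxcl10 holds 2 matches, 159 and 103 bases before the start, and the interferon element 213 bases before it. In Cx3cl1 neither motif was found in these 300 bases, only the TATA box letters TATAAA 6 bases before the start. The same search over both strands of the RefSeq promoters of 27025 genes found the NF-κB consensus in 5.14%, the interferon element in 3.99%, TATAAA in 15.7% and the AP-1 letters TGANTCA in 8.97% of genes. Promoters of 8 of the 10 chemokines were available and searched. None was available for Cxcl5 and Cxcl16, so whether these 2 hold any of the motifs was not examined. Cxcl14 had an interferon element 172 bases before the start, Cxcl10 had AP-1 letters 74 bases before it, and Cxcl9 had them after the start. Cxcl12, which also rose with TWEAK and whose sequence is not printed above, had none of the 4 motifs. The printed promoters were chosen by both rise and matches, and whether these go together was not tested. A match describes the letters only, and binding was not measured.

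**Figure D1:**
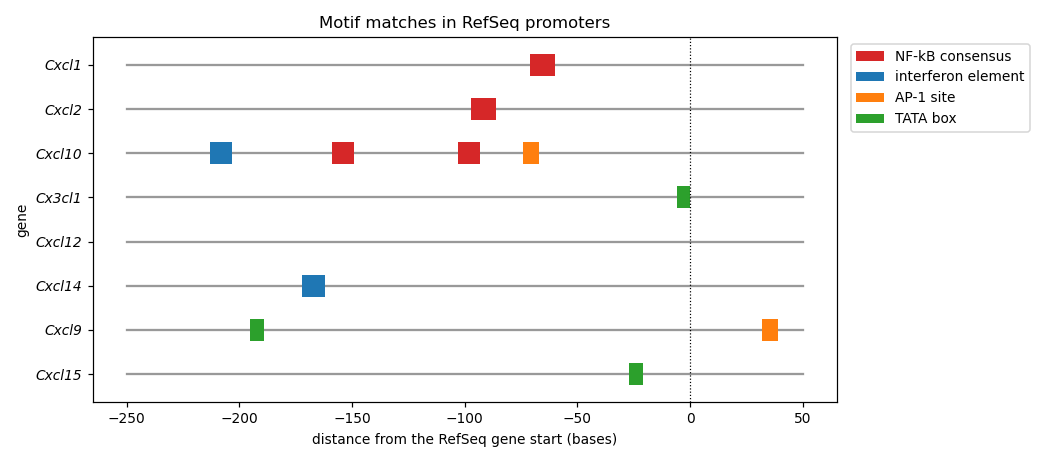
Motif matches in the promoters of 8 chemokine genes, with the distance from the RefSeq start in bases on the horizontal axis and 1 line per gene. Boxes stand for matches on either strand: Cxcl1, Cxcl2 and Cxcl10 carry the NF-κB consensus and the other 5 do not.

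Per length, Cxcl16 was the most abundant of the 10 transcripts in every group. Its mean level was 75.9 ± 3.60 RPKM (reads per kilobase of exon, scaled to the total of the sample, SD, n = 3) in vehicle at 6 h and 179 ± 7.20 RPKM with TWEAK at 6 h. It made up 59% to 66.2% of the summed RPKM of the 10 genes, depending on the group. Cxcl1 came next in vehicle, at 28.0 ± 0.644 RPKM at 6 h and 16.9 ± 2.05 RPKM at 24 h. With TWEAK the second place went to Cx3cl1, which stood at 53.1 ± 2.62 RPKM at 6 h and 56.3 ± 0.444 RPKM at 24 h and did not overlap Cxcl1 at either time. With TWEAK and NIK SMI1 at 6 h, Cxcl1 and Cx3cl1 overlapped at 30.1 ± 1.68 and 29.5 ± 0.520 RPKM. Cxcl5, Cxcl10, Cxcl12 and Cxcl14 stayed below 1.5 RPKM in vehicle at both times, in an order whose neighbours partly overlapped: Cxcl12 and Cxcl10 at 6 h, and Cxcl10, Cxcl5 and Cxcl12 at 24 h. Cxcl10 reached 9.31 ± 0.263 RPKM with TWEAK at 24 h, where its samples overlapped those of Cxcl2 at 10.2 ± 1.07 RPKM.

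**Figure D2:**
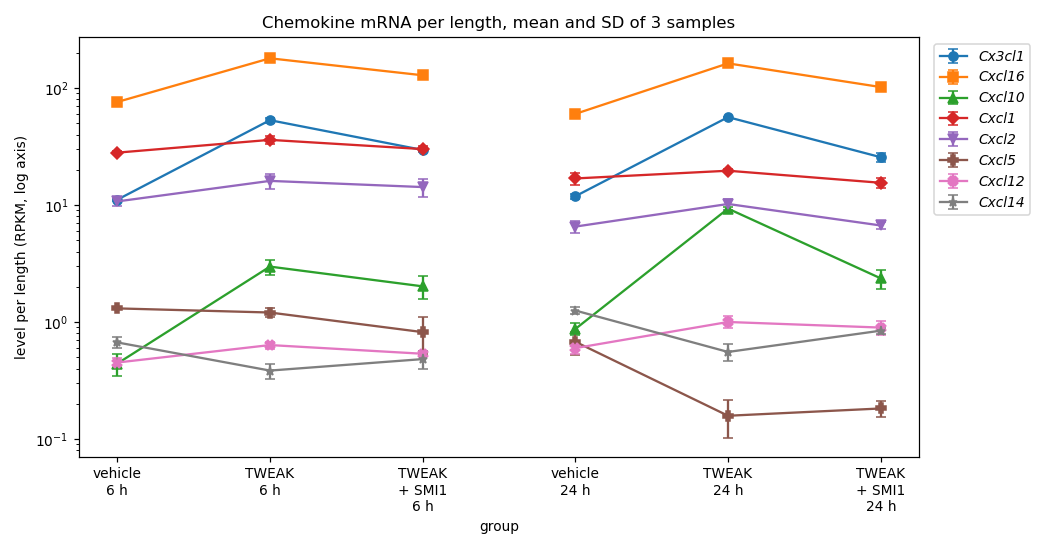
Levels per length of the 8 tested chemokine transcripts in the 6 groups, as mean RPKM on a log axis, with bars for the SD over 3 samples. Cxcl16 lies above the other 7 in every group, Cx3cl1 passes Cxcl1 with TWEAK, and Cxcl5 falls to 0.158 RPKM with TWEAK at 24 h.

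To ask which chemokines respond to TWEAK, the TWEAK samples were compared with vehicle of the same time. At 6 h, 6 of the 8 tested chemokines rose at an adjusted p below 0.05 (edgeR quasi-likelihood test, adjusted over all 15521 genes), where 11.7% of all tested genes did: Cxcl1, Cxcl2, Cxcl10, Cxcl12, Cxcl16 and Cx3cl1. Cxcl14 fell, as did 12% of all tested genes, and Cxcl5 did not pass the test. Above the 2-fold that the study used for induced genes were 3 of 8, Cxcl10, Cxcl16 and Cx3cl1, beside 1.75% of all genes. At 24 h the same 6 chemokines rose, beside 18.3% of all genes, and 2 fell, Cxcl5 and Cxcl14, beside 20.7%. The same 3 were above 2-fold, beside 2.34% of all genes. For the 8 together, the median fold change on the log2 scale was 0.55 at 6 h and 0.72 at 24 h, beside -0.0034 and -0.0055 for all tested genes.

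To ask which of these responses depend on NIK activity, samples with TWEAK and NIK SMI1 were compared with those with TWEAK alone. At 6 h, 4 of 8 chemokines were lower with the inhibitor, Cxcl1, Cxcl10, Cxcl16 and Cx3cl1, beside 5.7% of all tested genes, and none was higher, beside 5.34%. The count of higher ones was 0 also at an unadjusted p below 0.05 in edgeR, and at an adjusted p below 0.05 in DESeq2. Lower by more than 1.5-fold was 1 of 8, Cx3cl1, beside 1.1% of all genes. The 4 became 2 without inhibitor replicate 2, and the 1 became 2 without TWEAK replicate 1, TWEAK replicate 2 or inhibitor replicate 1, and 3 without inhibitor replicate 3. At 24 h, 5 were lower, Cxcl1, Cxcl2, Cxcl10, Cxcl16 and Cx3cl1, beside 8.29% of all genes. Cxcl14 was higher, beside 10.2%, a call that was lost without TWEAK replicate 1 or 3 or inhibitor replicate 1 or 3. Of the 5, all but Cxcl1 were lower by more than 1.5-fold, that is 4 of 8, beside 1.75% of all genes. These comparisons share the TWEAK samples with those against vehicle.

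**Figure D3:**
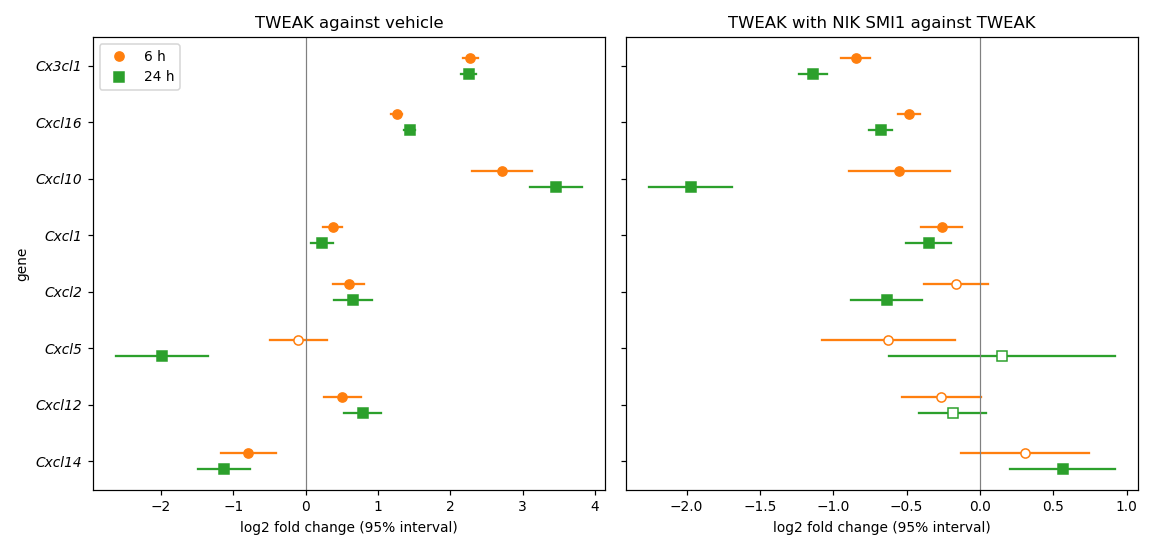
Log2 fold changes of the 8 tested chemokines for TWEAK against vehicle (left) and for TWEAK with NIK SMI1 against TWEAK (right), at 6 h (circles) and 24 h (squares), with 95% intervals from the edgeR fit of 3 samples per group. Filled symbols passed an adjusted p of 0.05: Cx3cl1, Cxcl16 and Cxcl10 lie right of 0 on the left and left of 0 on the right at both times.

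Of the 8 tested chemokines, the membrane-anchored ones varied least between samples of a group. The biological coefficient of variation was 0.040 for Cx3cl1 and 0.034 for Cxcl16, against 0.049 to 0.102 for the other 6. Its common value over all tested genes was 0.040, and Cx3cl1 and Cxcl16 also had the most reads of the list, 66480 and 198570 in all samples. Cx3cl1 (Entrez Gene 20312), the only CX3C chemokine, stood at 35.5, 35.8 and 37.4 CPM in the vehicle samples at 6 h, at 173, 167 and 182 CPM with TWEAK, and at 95.2, 98.6 and 97.2 CPM with TWEAK and NIK SMI1. At 24 h its samples were at 38.0, 37.8 and 41.1 CPM with vehicle, 183, 187 and 185 CPM with TWEAK, and 93.3, 81.1 and 77.8 CPM with TWEAK and NIK SMI1. At each time the 3 groups stood fully apart, TWEAK highest and vehicle lowest.

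TWEAK raised Cx3cl1 by 2.27 ± 0.050 on the log2 scale at 6 h (SE, edgeR, adjusted p = 1.92e-22) and by 2.25 ± 0.052 at 24 h (edgeR, adjusted p = 2.28e-22), which is 4.83-fold and 4.76-fold. The difference between these effects was -0.02, with a 95% interval of -0.17 to 0.13. With NIK SMI1, Cx3cl1 was lower than with TWEAK alone by -0.85 ± 0.048 at 6 h (edgeR, adjusted p = 9.58e-13) and by -1.14 ± 0.047 at 24 h (edgeR, adjusted p = 4.46e-16). It remained above vehicle by 1.42 on the log2 scale at 6 h (edgeR, adjusted p = 4.67e-17) and by 1.11 at 24 h (edgeR, adjusted p = 7.90e-15). Expressed on the CPM scale, the inhibitor samples had lost 55.9% ± 1.23 (SD, n = 3) of the mean TWEAK rise at 6 h and 69.1% ± 5.56 at 24 h. On a scale of log2(CPM + 0.1) these shares were 37.2% and 50.8%.

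Cxcl16 (Entrez Gene 66102), a chemokine that also serves as a scavenger receptor for oxidised lipoprotein, was at 192, 209.7 and 195 CPM in vehicle at 6 h, at 467, 457 and 488 CPM with TWEAK, and at 345, 348 and 319.9 CPM with TWEAK and NIK SMI1. At 24 h it was at 158, 154 and 162 CPM with vehicle, 425, 423 and 434 CPM with TWEAK, and 271, 268 and 265 CPM with the inhibitor added. As for Cx3cl1, no sample of 1 group overlapped another group of the same time.

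The rise of Cxcl16 with TWEAK was 1.26 ± 0.038 on the log2 scale at 6 h (edgeR, adjusted p = 1.49e-19) and 1.44 ± 0.039 at 24 h (edgeR, adjusted p = 7.12e-21), or 2.39-fold and 2.70-fold. NIK SMI1 lowered it against TWEAK alone by -0.48 ± 0.038 at 6 h (edgeR, adjusted p = 4.02e-10) and by -0.68 ± 0.038 at 24 h (edgeR, adjusted p = 2.28e-13). Its log2 level with the inhibitor exceeded vehicle by 0.77 at 6 h and by 0.76 at 24 h (edgeR, adjusted p = 3.01e-14 and 3.60e-14). In CPM, 48.9% ± 5.73 of the rise was removed at 6 h and 59.1% ± 1.14 at 24 h, which on the log2(CPM + 0.1) scale was 38.5% and 46.8%. Since both membrane-anchored genes rose, but Cx3cl1 by the larger factor, the ratio of Cxcl16 to Cx3cl1 in RPKM went from 6.85 ± 0.417 to 3.38 ± 0.034 at 6 h and from 5.06 ± 0.147 to 2.88 ± 0.052 at 24 h.

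**Figure D4:**
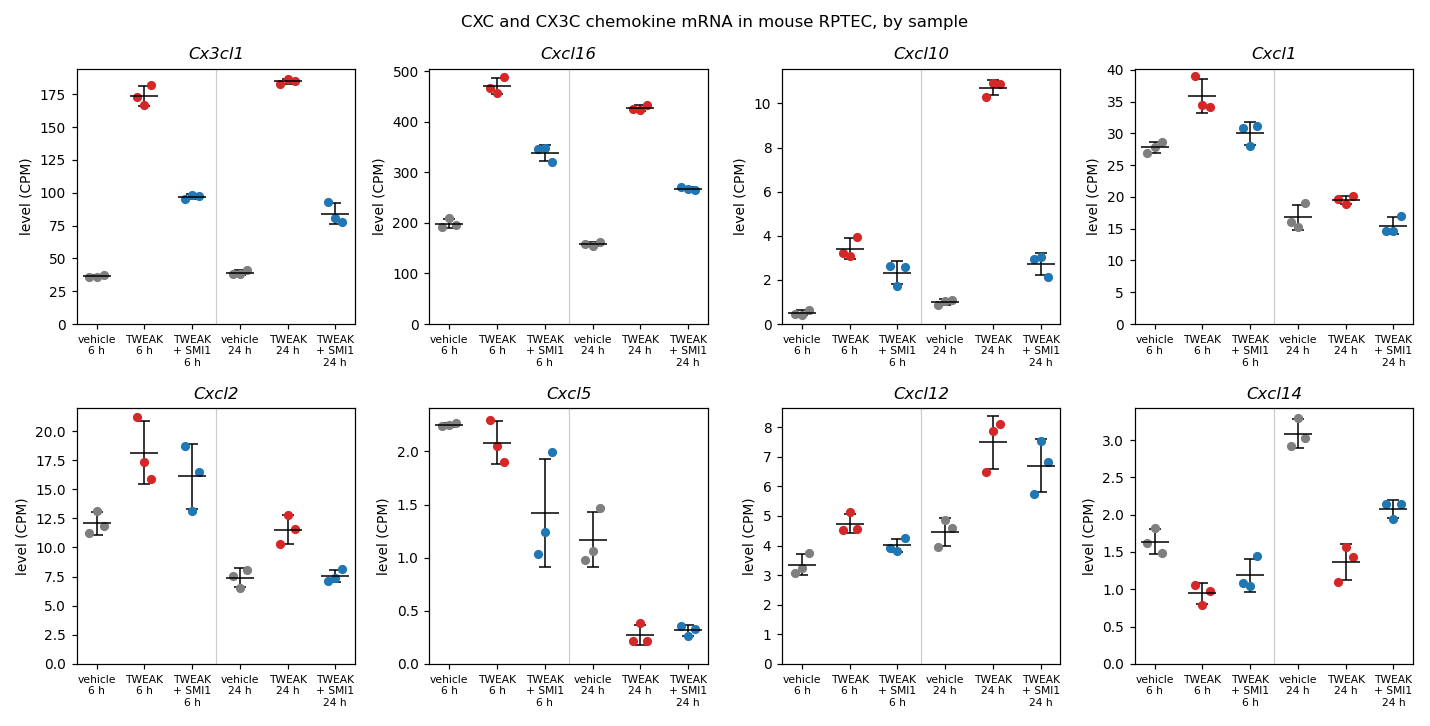
Level of the 8 tested chemokine transcripts in each of the 18 samples, in CPM on linear axes from 0, with the mean and the SD of 3 samples. Vehicle is grey, TWEAK red and TWEAK with NIK SMI1 blue: Cx3cl1 and Cxcl16 form 3 separate levels at each time, while Cxcl5 is lower in both treated groups than in vehicle at 24 h.

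Of the CXCR3 ligands, Cxcl10 responded and Cxcl9 was all but absent. Cxcl10 (Entrez Gene 15945), known as an interferon-inducible chemokine, was near the floor in vehicle, at 0.454, 0.428 and 0.635 CPM (14 to 33 reads) at 6 h. TWEAK samples stood at 3.22, 3.06 and 3.96 CPM, and samples with the inhibitor added at 2.64, 1.72 and 2.61 CPM. These groups did not overlap at 6 h, although the lowest TWEAK and the highest inhibitor sample lay close together.

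At 24 h Cxcl10 was at 0.865, 1.07 and 1.07 CPM with vehicle, at 10.3, 10.9 and 10.9 CPM with TWEAK (234 to 510 reads), and at 2.96, 3.04 and 2.15 CPM with TWEAK and NIK SMI1. Every TWEAK sample was more than 3 times any inhibitor sample, and every inhibitor sample was above all vehicle samples. TWEAK raised it by 2.71 ± 0.201 on the log2 scale at 6 h and by 3.46 ± 0.175 at 24 h (edgeR, adjusted p = 2.44e-11 and 4.58e-15), the latter being 11-fold, with an interval of 8.57 to 14.1. The 2 rises differed by 0.75, with an interval of 0.12 to 1.38, which did not pass the test (edgeR, adjusted p = 0.142).

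NIK SMI1 lowered Cxcl10 against TWEAK alone by -0.55 ± 0.166 at 6 h (edgeR, adjusted p = 0.0308) and by -1.97 ± 0.138 at 24 h (edgeR, adjusted p = 2.39e-11). The call at 6 h was lost without TWEAK replicate 3 (edgeR, adjusted p = 0.148), without inhibitor replicate 2 (edgeR, adjusted p = 0.233) and when only the 6 h samples were fitted (edgeR, adjusted p = 0.0846). Against vehicle Cxcl10 was still higher with the inhibitor present, by 2.16 at 6 h and 1.49 at 24 h (edgeR, adjusted p = 8.14e-08 and 3.20e-06). The share of the rise removed was 37.5% ± 18 at 6 h and 82.3% ± 5.11 at 24 h in CPM, and 21.7% and 59.3% on the log2(CPM + 0.1) scale. Cxcl9 (Entrez Gene 17329), the other CXCR3 ligand on the list and next but one to Cxcl10 on chromosome 5, had 1 read in 1 TWEAK 6 h sample and none in the other 17. A count of 0 allows up to 3 reads, so levels below 0.0577 to 0.166 CPM, depending on the sample, were not detectable at this depth, as far as counting error goes.

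The CXCR2 ligands did not move as a block. Cxcl1 (Entrez Gene 14825), a neutrophil attractant also known as KC, was at 26.9, 27.8 and 28.7 CPM in vehicle at 6 h, at 39.0, 34.4 and 34.2 CPM with TWEAK, and at 30.8, 28.0 and 31.2 CPM with TWEAK and NIK SMI1. At 24 h it was lower in each group, at 16.1, 15.2 and 19.0 CPM, then 19.7, 18.9 and 20.1 CPM, and then 14.7, 14.6 and 17.0 CPM, in the same order of groups. TWEAK stood clear of the inhibitor samples at both times and clear of vehicle at 6 h, but overlapped vehicle at 24 h.

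Cxcl1 rose with TWEAK by 0.37 ± 0.065 on the log2 scale at 6 h (edgeR, adjusted p = 5.59e-05) and by 0.23 ± 0.076 at 24 h (edgeR, adjusted p = 0.0201), so by 1.30-fold and 1.17-fold. The 24 h call did not survive the removal of vehicle replicate 1 (edgeR, adjusted p = 0.120), vehicle replicate 2 (edgeR, adjusted p = 0.104) or TWEAK replicate 3 (edgeR, adjusted p = 0.0775), nor of TWEAK replicates 1 and 3 together, the ones with insulin reads (edgeR, adjusted p = 0.248). With the inhibitor it was lower than with TWEAK by -0.26 ± 0.067 at 6 h (edgeR, adjusted p = 0.00945) and by -0.35 ± 0.074 at 24 h (edgeR, adjusted p = 0.000936). Without TWEAK replicate 1 or inhibitor replicate 2 the former was not called (edgeR, adjusted p = 0.0789 and 0.0822). Without TWEAK replicates 1 and 3 the latter was -0.30 and not called (edgeR, adjusted p = 0.0763). Against vehicle the inhibitor samples differed by 0.11 (interval -0.03 to 0.25) at 6 h and by -0.12 (interval -0.29 to 0.04) at 24 h.

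Cxcl2 (Entrez Gene 20310), also known as MIP-2 and the direct neighbour of Cxcl1, was at 11.2, 13.2 and 11.9 CPM in vehicle at 6 h, at 21.2, 17.3 and 15.9 CPM with TWEAK, and at 18.7, 13.1 and 16.5 CPM with TWEAK and NIK SMI1. At 24 h the vehicle samples were at 7.55, 6.49 and 8.10 CPM, the TWEAK samples at 10.3, 12.8 and 11.6 CPM, and the inhibitor samples at 7.13, 7.39 and 8.16 CPM. TWEAK was above vehicle in all samples at both times, while the inhibitor samples spread across both other groups at 6 h and overlapped the vehicle samples at 24 h.

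TWEAK raised Cxcl2 by 0.59 ± 0.105 on the log2 scale at 6 h and 0.65 ± 0.125 at 24 h (edgeR, adjusted p = 7.52e-05 and 0.000123). With NIK SMI1 it differed from TWEAK alone by -0.16 (interval -0.38 to 0.06) at 6 h, which did not pass (edgeR, adjusted p = 0.390), and was lower by -0.64 ± 0.118 at 24 h (edgeR, adjusted p = 0.000223). That these effects differ between the times was not shown with the filter used (difference -0.47, edgeR, adjusted p = 0.0889), but passed in the unfiltered fit (edgeR, adjusted p = 0.00561), without TWEAK 6 h replicate 1 (edgeR, adjusted p = 0.0397) and without inhibitor 6 h replicate 2 (edgeR, adjusted p = 0.0277). Above vehicle by 0.43 at 6 h (edgeR, adjusted p = 0.00861, and 0.142 without inhibitor replicate 1), Cxcl2 with the inhibitor was 0.02 above vehicle at 24 h, with an interval of -0.25 to 0.29. The ratio of Cxcl1 to Cxcl2 in RPKM was 1.68 to 2.74 over all samples.

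Cxcl5 (Entrez Gene 20311), known as an epithelial neutrophil attractant, went the other way. Vehicle samples at 6 h were at 2.24, 2.25 and 2.27 CPM, TWEAK samples at 2.30, 2.05 and 1.90 CPM, and samples with TWEAK and NIK SMI1 at 1.03, 1.24 and 2.00 CPM. At 24 h they were at 0.982, 1.07 and 1.46 CPM with vehicle (21 to 42 reads), at 0.220, 0.385 and 0.215 CPM with TWEAK (5 to 18 reads) and at 0.361, 0.261 and 0.325 CPM with the inhibitor added (9 to 16 reads). Both treated groups lay below every vehicle sample at 24 h and overlapped each other.

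At 6 h TWEAK and vehicle differed by -0.10 (interval -0.50 to 0.29, edgeR, adjusted p = 0.776), and at 24 h Cxcl5 fell by 1.98 ± 0.310 on the log2 scale (edgeR, adjusted p = 8.15e-06), which is a 3.95-fold lower level. The difference between the 2 effects was -1.88 ± 0.367 (edgeR, adjusted p = 0.000911). NIK SMI1 with TWEAK gave -0.62 against TWEAK alone at 6 h, which did not pass (interval -1.08 to -0.17, edgeR, adjusted p = 0.0688) but did without inhibitor replicate 3 (edgeR, adjusted p = 0.0105). At 24 h this difference was 0.15, with a wide interval of -0.62 to 0.92. Against vehicle, Cxcl5 with the inhibitor was lower by -0.73 at 6 h (edgeR, adjusted p = 0.0251) and by -1.83 at 24 h (edgeR, adjusted p = 4.83e-05). The 6 h call was lost without vehicle replicate 1 or 3 (edgeR, adjusted p = 0.0513 and 0.0508) and without inhibitor replicate 1 or 2 (edgeR, adjusted p = 0.192 and 0.106). Cxcl15 (Entrez Gene 20309), a chemokine best known from the lung that lies beside Cxcl1, had no read in 14 samples and at most 2 in the other 4.

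Cxcl12 (Entrez Gene 20315), the CXCR4 ligand, rose modestly with TWEAK. It was at 3.08, 3.23 and 3.75 CPM in vehicle at 6 h, at 4.54, 5.13 and 4.57 CPM with TWEAK, and at 3.92, 3.83 and 4.27 CPM with TWEAK and NIK SMI1. At 24 h it was at 3.95, 4.87 and 4.59 CPM, then 6.48, 7.88 and 8.10 CPM, and then 5.75, 7.54 and 6.83 CPM. TWEAK samples were above vehicle at both times, and the inhibitor samples lay between the groups at 6 h and overlapped TWEAK at 24 h.

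The rise of Cxcl12 was 0.50 ± 0.125 on the log2 scale at 6 h and 0.79 ± 0.124 at 24 h (edgeR, adjusted p = 0.00308 and 9.00e-06). Against TWEAK alone, the inhibitor gave -0.26 (interval -0.53 to 0.01) at 6 h and -0.19 (interval -0.42 to 0.04) at 24 h (edgeR, adjusted p = 0.229 and 0.285), so neither was called. At 24 h Cxcl12 with the inhibitor stayed above vehicle by 0.60 (edgeR, adjusted p = 0.000801), and at 6 h the difference was 0.24 (interval -0.04 to 0.52). Its highest RPKM, 1 ± 0.115 with TWEAK at 24 h, was far below that of Cxcl16.

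Cxcl14 (Entrez Gene 57266), a chemokine expressed constitutively in many epithelia, was the one that fell at both times. Vehicle samples were at 1.62, 1.82 and 1.48 CPM at 6 h, TWEAK samples at 1.06, 0.795 and 0.977 CPM, and those with TWEAK and NIK SMI1 at 1.09, 1.04 and 1.44 CPM. The corresponding levels at 24 h were 2.92, 3.30 and 3.03 CPM, then 1.10, 1.56 and 1.43 CPM, and then 2.14, 1.94 and 2.15 CPM, on 25 to 125 reads per sample. The 3 groups at 24 h did not overlap, whereas at 6 h the inhibitor samples overlapped TWEAK.

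Cxcl14 fell by 0.79 ± 0.187 on the log2 scale with TWEAK at 6 h (edgeR, adjusted p = 0.00202) and by 1.13 ± 0.173 at 24 h (edgeR, adjusted p = 6.40e-06), to 0.578 and 0.458 of the vehicle level. With NIK SMI1 it was higher than with TWEAK alone by 0.56 ± 0.174 at 24 h (edgeR, adjusted p = 0.0230), and by 0.31 (interval -0.13 to 0.74) at 6 h, which was not called. The 24 h call was lost without TWEAK replicate 1 (edgeR, adjusted p = 0.0906) or 3 (edgeR, adjusted p = 0.0546), without both of these (edgeR, adjusted p = 0.334), and without inhibitor replicate 1 or 3 (edgeR, adjusted p = 0.0683 and 0.0669). Below vehicle by -0.56 at 24 h with the inhibitor (edgeR, adjusted p = 0.0152), it was not called there without vehicle replicate 2 or inhibitor replicate 2 (edgeR, adjusted p = 0.0583 and 0.0605). At 6 h it differed from vehicle by -0.48 (interval -0.89 to -0.08, edgeR, adjusted p = 0.107).

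Set against vehicle rather than TWEAK, cells with TWEAK and NIK SMI1 had 4 of 8 chemokines higher at 6 h, Cxcl2, Cxcl10, Cxcl16 and Cx3cl1, beside 7.23% of all tested genes, and Cxcl5 lower, beside 6.7%. At 24 h 4 were higher, Cxcl10, Cxcl12, Cxcl16 and Cx3cl1, beside 8.07%, and Cxcl5 and Cxcl14 were lower, beside 9.83%. The 3 chemokines induced more than 2-fold by TWEAK were thus above vehicle with the inhibitor at both times. At 24 h the inhibitor samples had no insulin reads, while the vehicle samples had 8.05 to 11.3 CPM. In that comparison, whatever this difference reflects cannot be told apart from the treatment. On the log2 scale, effects of TWEAK differed between 6 h and 24 h for Cxcl16 and Cxcl5. The rise of Cxcl16 was larger by 0.18 at 24 h, beside 3.24% of genes with a more positive effect. In CPM its mean went from 198.7 to 470.9 at 6 h and, from a lower vehicle level, from 157.8 to 426.9 at 24 h. The effect on Cxcl5 was more negative at 24 h, beside 5.67% of genes. Effects of NIK SMI1 were more negative at 24 h for 3 of 8, Cxcl10 (-1.42), Cxcl16 (-0.19) and Cx3cl1 (-0.29), beside 1.62% of genes. Both Cxcl16 differences were lost without 1 of several samples, TWEAK replicates 1 and 2 at 6 h and 1 and 3 at 24 h among them (edgeR, adjusted p = 0.0596 to 0.109), and without TWEAK 24 h replicates 1 and 3 together (edgeR, adjusted p = 0.228 for TWEAK and 0.221 for NIK SMI1). Without these 2 samples the Cx3cl1 difference was also lost (edgeR, adjusted p = 0.0773). More positive were none of the 8 by adjusted or unadjusted p in edgeR, beside 3.11% of genes. DESeq2 also called none, but gave no adjusted p for Cxcl5 and Cxcl14.

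Most of these genes also differed between the vehicle groups of the 2 times. Between vehicle at 6 h and vehicle at 24 h, 4 of 8 fell, beside 14.4% of all tested genes, and 2 rose, beside 15.5%. The 3 tested CXCR2 ligands all fell, Cxcl1 by 0.80 ± 0.073, Cxcl2 by 0.77 ± 0.123 and Cxcl5 by 1.05 ± 0.223 on the log2 scale (edgeR, adjusted p = 1.74e-09, 1.93e-05 and 0.000643). Cxcl16 fell by 0.40 ± 0.039 (edgeR, adjusted p = 6.93e-09). Cxcl14 rose by 0.84 ± 0.168 (edgeR, adjusted p = 0.000296) and Cxcl10 by 0.83 ± 0.271 (edgeR, adjusted p = 0.0212). The Cxcl10 call was lost without vehicle 6 h replicate 1 or 2 (edgeR, adjusted p = 0.0528 and 0.0763) and without vehicle 24 h replicate 2 or 3 (edgeR, adjusted p = 0.0593 and 0.0624). Cx3cl1 differed by 0.03 (interval -0.08 to 0.15). Cxcl12 differed by 0.31 (interval 0.03 to 0.58, edgeR, adjusted p = 0.0881), which passed when libraries were scaled by their totals alone (edgeR, adjusted p = 0.0357).

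Receptors for these chemokines were barely read in the RPTEC. Of 8 receptor genes, Cxcr1 had no read in any sample and Cxcr2, Cxcr3, Cxcr4, Cxcr6, Cx3cr1 and Ackr1 had at most 6 reads in any sample. The exception was Ackr3, the scavenging receptor for Cxcl12, at 84.1 ± 1.63 CPM (SD, n = 3) in vehicle at 6 h, 42.5 ± 0.898 CPM with TWEAK and 54.3 ± 1.57 CPM with TWEAK and NIK SMI1. At 24 h the means were 71.2 ± 1.39, 35.3 ± 0.761 and 48.2 ± 2.68 CPM. Ackr3 fell by 0.97 at 6 h and by 1.02 at 24 h on the log2 scale with TWEAK, and was higher with the inhibitor than with TWEAK alone by 0.35 and 0.45. These 4 differences passed the test, with an edgeR adjusted p of at most 1.40e-06.

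Among 4 tested proteases known to shed or trim chemokines, 2 rose and 1 fell with TWEAK at each time, beside 11.7% and 12% of all tested genes at 6 h and 18.3% and 20.7% at 24 h. Mmp9, a secreted gelatinase, rose from 3.75 ± 0.698 to 16.2 ± 0.768 CPM at 6 h and from 1.88 ± 0.038 to 61.1 ± 0.142 CPM at 24 h, and stood at 5.67 ± 0.737 and 11 ± 0.315 CPM with NIK SMI1 added. Adam17 rose by 0.29 and 0.24 on the log2 scale at 6 h and 24 h, and Adam10, which sheds both Cxcl16 and Cx3cl1, fell by 0.13 and 0.25. No protein was measured, so shedding was not seen in these data.

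Most genes of the signalling list changed with TWEAK. Of 18 tested genes of the TWEAK receptor and NF-κB list, 15 rose with TWEAK at 6 h, beside 11.7% of all tested genes, and 15 rose and 1, Chuk, fell at 24 h, beside 18.3% and 20.7%. The 3 that did not pass at 6 h were Chuk, Nfkbiz and Tnfrsf12a, the receptor itself, named here after their values were seen. With NIK SMI1 against TWEAK, 12 fell and 2 rose at 6 h, beside 5.7% and 5.34% of all tested genes, and 14 fell and 1 rose at 24 h, beside 8.29% and 10.2%. Over the list, the median was 0.77 on the log2 scale at 6 h and 0.79 at 24 h for TWEAK against vehicle, and -0.22 and -0.39 for the inhibitor against TWEAK. Traf1, an adaptor of TNF receptors, rose by 4.36 and 5.68 on the log2 scale with TWEAK, Nfkbia, an inhibitor of NF-κB, by 2.56 and 2.77, and Nfkb2, which encodes p100, by 1.90 and 1.87. Irf1, a transcription factor of interferon responses, rose by 0.51 and 0.53, and Irf7, another of them, fell by 0.62 at 24 h. Of 3 genes of mRNA decay, 2 rose at 6 h, Zc3h12a and Elavl1, beside 11.7% of all tested genes, and 1 at 24 h, beside 18.3%. The latter was Zc3h12a, which encodes an RNase that degrades cytokine transcripts.

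Genes whose 4 log2 fold changes against vehicle lay closest to those of a chemokine were named by the root mean square of the differences, over the 4 comparisons of treated groups with vehicle, each on 3 samples per group. For Cxcl10 these were Icam1 (0.32), Ccl2 (0.36) and Syt2 (0.37). For Cx3cl1 they were Ltb (0.17), Msc (0.22) and Pik3r5 (0.23), and for Cxcl16 Socs1 (0.08), Rab20 (0.08) and Sprr1a (0.08). Cxcl14 lay nearest to Kcnk5 (0.04), Fzd4 (0.06) and Cdh6 (0.06), and Cxcl5 to Cdh4 (0.19), Ifit1bl1 (0.26) and Adra2a (0.27). Cxcl12 had Limd2 (0.05), Cdc42ep3 (0.06) and Ccdc122 (0.07) as nearest, Cxcl2 had Slc22a15, Gm16675 and Gm9027 (0.09 each) and Cxcl1 had Rps13-ps4, Tnfrsf1b and Vdr (0.06 each). Rps13-ps4, Cdh4, Adra2a, Ifit1bl1, Ltb, Gm16675, Ccl2 and Gm9027 had low mean levels, 0.19 to 0.89 CPM over all samples. Their fold changes, and so their place as nearest, are less certain.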

How the data were processed

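RNA-Seq of 18 RPTEC samples was used. The authors aligned reads with GSNAP through HTSeqGenie to NCBI build 37 and deposited counts of uniquely aligned reads in the exons of each gene, not normalised. The authors' files also hold RPKM and the exonic length of each gene, and these RPKM values served only to compare levels between genes. The labels and the methods differ on sequencer and read length. Strand use in counting was not given in the sources used here. Of 36528 Entrez Gene identifiers, 31049 were given a symbol.

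Counts were divided by library totals to give CPM. The study's filter, over 10 reads in 4 samples or more, left 15521 genes, which were fitted as 6 groups in edgeR 4.0.16 (R 4.3.3) with TMM factors of 0.964 to 1.03, glmQLFit and glmQLFTest. P-values were adjusted by Benjamini-Hochberg over all tested genes. Standard errors came from the F statistic, and intervals are 95%. A difference between times was an interaction contrast. The study named DESeq2, which served as an alternative (1.42.0). Other alternatives were DESeq2 size factors, library totals, other filters, single time points, each sample left out, TWEAK 24 h samples with insulin reads left out, and a test against 1.5-fold. Leaving out both such samples was chosen after seeing the data. The share of a TWEAK rise removed is the mean TWEAK level minus an inhibitor sample's level, divided by the mean TWEAK minus the mean vehicle level. In simulated counts of 15345 genes, with the spread fitted to these data, 98 genes were changed by 1 and 100 by 0.585 on the log2 scale. Of these, 87.8% and 71% were recovered for TWEAK at 6 h, and 83.7% and 73% at 24 h. Of unchanged genes, 0.0924% and 0.066% were called at the 2 times. Far fewer genes were changed than were called in the data, so these rates need not hold there.

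All 10 chemokines are named. Other genes are the at most 4 of each pathway list with the smallest adjusted p in a TWEAK or NIK SMI1 comparison, and the 3 genes nearest to each chemokine by fold changes. Members and lists were chosen with earlier results of these data known. Promoters are from RefSeq, and positions on build 37 were not used here. Intervals cover counting error and sample spread only.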

Additional observations from a re-analysis of the deposited data

Results flagged for a closer look

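For 5 effects a test of the difference between 6 h and 24 h passed (interaction contrasts in edgeR, adjusted over all tested genes). The TWEAK effect on Cxcl5 was more negative at 24 h by -1.88 on the log2 scale (edgeR, adjusted p = 0.000911), and it stayed so without any 1 of the 18 samples, from -2.27 to -1.69. The TWEAK effect on Cxcl16 was larger at 24 h by 0.18 on the log2 scale, from a lower vehicle level (edgeR, adjusted p = 0.0355). That call was lost without vehicle 6 h replicate 2, TWEAK 6 h replicate 1 or 2, vehicle 24 h replicate 1 or 2, or TWEAK 24 h replicate 1 or 3, with differences of 0.14 to 0.18, and without TWEAK 24 h replicates 1 and 3 together (0.16, edgeR, adjusted p = 0.228).

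The effect of NIK SMI1 on Cxcl10 was more negative at 24 h by -1.42 (edgeR, adjusted p = 0.000324), between -1.60 and -1.27 without any 1 sample and past the threshold each time. For Cx3cl1 the difference was -0.29 (edgeR, adjusted p = 0.0106), between -0.37 and -0.24 without any 1 sample, with the call kept each time, but lost without TWEAK 24 h replicates 1 and 3 together (-0.30, edgeR, adjusted p = 0.0773). For Cxcl16 it was -0.19 (edgeR, adjusted p = 0.0340), a call lost without TWEAK 6 h replicate 1 or 2, inhibitor 6 h replicate 1 or 2, TWEAK 24 h replicate 1 or 3, or inhibitor 24 h replicate 2 or 3, and without TWEAK 24 h replicates 1 and 3 together (-0.17, edgeR, adjusted p = 0.221).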

How the results depend on the processing

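Of 1766 chemokine fold changes recomputed under the alternatives, 1714 kept their side of the threshold, 47 were no longer past it, 5 passed newly and none that passed reversed. The 1714 include fold changes near 0 that passed in neither fit and changed direction. For Cx3cl1 the TWEAK effect at 24 h against 6 h was -0.022, and up to 0.017 with 1 sample left out. DESeq2 gave no adjusted p for the effect of NIK SMI1 at 24 h against 6 h of Cxcl5 and Cxcl14. Tested against 1.5-fold, chemokines raised by TWEAK went from 6 to 3 at 6 h and from 6 to 3 at 24 h, and lowered from 1 to 0 at 6 h. With NIK SMI1 against TWEAK, lowered went from 4 to 1 at 6 h and from 5 to 2 at 24 h, and raised from 1 to 0 at 24 h. Against vehicle, lowered with the inhibitor went from 1 to 0 at 6 h and from 2 to 1 at 24 h. For vehicle at 24 h against 6 h, raised went from 2 to 0 and lowered from 4 to 1. Effects that differed between times went from 1 to 0 raised for TWEAK and from 3 to 0 lowered for NIK SMI1. These counts fall by construction, since the threshold is stricter.

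Without TWEAK 24 h replicate 1, and without replicates 1 and 3, chemokines raised with NIK SMI1 against TWEAK at 24 h went from 1 to 0 and those with a larger TWEAK effect at 24 h from 1 to 0. Without both, those with a more negative NIK SMI1 effect at 24 h went from 3 to 1, with 1 TWEAK 24 h sample left, assumed to vary like the others. Fewer samples entered these fits, and the cause was not tested further.

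With each sample left out in turn, lowered counts for NIK SMI1 against TWEAK ranged from 2 to 5 at 6 h and stayed at 5 at 24 h, and those over 1.5-fold from 1 to 3 and from 3 to 4. Raised at 24 h ranged from 0 to 1. Lowered with the inhibitor against vehicle ranged from 0 to 1 at 6 h and from 1 to 2 at 24 h. Vehicle at 24 h against 6 h ranged from 1 to 2 raised, and the TWEAK effect between times from 0 to 1 raised. No paired analysis was possible because the labels carry no replicate numbers. Depth limits Cxcl5, Cxcl10 and Cxcl14, with 5 to 18, 14 to 33 and 37 to 40 reads in the group of lowest mean CPM of each.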

Other observations

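CXC chemokine genes outside the list were looked at after their values were seen. Ppbp, which encodes a CXCR2 ligand best known from platelets, stood at 213 ± 5.62 CPM (SD, n = 3) in vehicle at 6 h, 158 ± 2.16 CPM with TWEAK and 178 ± 0.882 CPM with TWEAK and NIK SMI1. At 24 h it stood at 151 ± 2.49, 30.0 ± 0.590 and 67.2 ± 4.85 CPM. Ppbp fell by 0.42 on the log2 scale with TWEAK at 6 h and by 2.34 at 24 h (edgeR, adjusted p = 1.97e-09 and 5.40e-24), and was higher with the inhibitor than with TWEAK alone by 1.16 at 24 h (edgeR, adjusted p = 1.46e-16). In RPKM its level in vehicle at 6 h, 190.2 ± 6.16, was above that of Cxcl16 at 75.9 ± 3.60.

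Cxcl11, the third CXCR3 ligand, had at most 1 read in any vehicle sample and at most 3 with TWEAK at 6 h, but 11 to 23 reads, or 0.469 ± 0.034 CPM, with TWEAK at 24 h and 1 to 4 reads with NIK SMI1 added. Cxcl3, another CXCR2 ligand, was at 0.341 ± 0.047 CPM in vehicle and 0.760 ± 0.157 CPM with TWEAK at 6 h, on 9 to 47 reads (log2 fold change 1.16, edgeR, adjusted p = 0.0210). At 24 h Cxcl3 was at 0.426 ± 0.167 CPM in vehicle and 0.464 ± 0.214 CPM with TWEAK (log2 fold change 0.37, edgeR, adjusted p = 0.537). Cxcl17 and Pf4 had at most 4 reads in any sample.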
